A study of Mus musculus with 4 samples.

Results

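The 39 genes described here encode nucleolar proteins and ribosome assembly factors, together with Myc, a transcription factor that drives many of them. They were chosen by name, though with earlier results of these data known. All 39 are among the 12578 genes with values in the deposited table. They include fibrillarin (Fbl), nucleolin (Ncl) and Gar1, nucleolar proteins whose glycine- and arginine-rich stretches carry asymmetric dimethylarginine. The cells were MC38/gp100, a mouse colon adenocarcinoma line (MC38) named with gp100, a melanocyte antigen. Both groups were grown alike, in RPMI medium with serum. One received DMSO, the solvent, for 5 days (2 libraries), and the other received 1 µM GSK3368712 for 5 days (2 libraries). GSK3368712 inhibits type I protein arginine methyltransferases, the enzymes that make asymmetric dimethylarginine. The letters A and B for the libraries are those of the table's columns and match no replicate number in the labels. No label says whether a pair came from separate cultures, so p-values measure only the spread between these libraries, which may be technical.

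Ribosomes are built in the nucleolus. RNA polymerase I copies the ribosomal DNA into a long precursor, guide RNAs in box C/D and box H/ACA particles direct its methylation and pseudouridylation, and large sets of assembly factors fold, cleave and export the small and large subunits. In proliferating tumour cells MYC raises transcription of many of these factors, so their mRNAs are often read as a sign of growth. The comparison asks whether the messages for this machinery change while one class of its modifying enzymes is inhibited.

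Reads per library were worked back from the deposited base means and came to between 1079810 and 1176441 over all genes. The 39 genes held 0.719% of the base-mean total, and their base means (mean normalised reads over the 4 libraries) ran from 6.17 to 1326 with a median of 106. Such counts leave a wide counting error at the lower end. Between the libraries of a group, the squared deviation relative to counting error averaged 1.61 in DMSO and 1.44 in the inhibitor group over the 38 genes with at least 20 reads, against 2.25 and 1.46 over all such genes, where pure counting error would give about 1. The library kit keeps strand, while no source used here gives the strand setting of the counting. Genes with an exon of another gene on the opposite strand made up 33.6% of genes with values and held 59.4% of the base-mean total. The highest base means stood at Gm20721 (34785, opposite Gnas), Tlcd1 (26726, opposite Rpl23a) and Phykpl (16504, opposite Hnrnpab), while the beta-actin gene Actb, picked after its value was seen, stood at 2203. The values below are therefore reads assigned to each gene, and whether those reads came from its own mRNA was not tested. As for the identity of the cells, the colon epithelial markers Epcam, Cdx2, Krt18 and Krt20 carried no values and the summed level of the other 4 was 27.1 to 27.8 normalised reads in DMSO and 23.0 to 27.8 with the inhibitor. Melanocyte markers (2 of 6 with values; Mlana, Tyr, Tyrp1 and Dct had none) summed to 27.8 to 33.4 in DMSO and 27.8 to 35.1 with the inhibitor. Among leukocyte markers, Csf1r and Cd14 had values, Ptprc, Cd3e and Adgre1 had none, and the summed level was 438.7 to 502.1 in DMSO and 515.4 to 516.8 with the inhibitor, without overlap and with neither gene called. Endothelial markers (2 of 4; Kdr and Tek had none) summed to 0.90 to 2.1 in DMSO and 2.0 to 6.2 with the inhibitor. All 6 fibroblast markers had values, with a sum of 1169 to 1172 in DMSO and 1523 to 1709 with the inhibitor, and 1 of them was called. The part of these levels in the results was not tested.

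MYC and its relatives bind the E-box CACGTG, a word that is its own reverse complement. RefSeq promoters (250 bases before to 50 after the start, GRCm38.p6) were matched for 32 of the 39 genes, and 7 of these (21.9%) hold the word, against 8.09% of all 27025 genes with a promoter and 12.6% of the 6706 tested genes with one. The windows of 30 bases around the word are shown because MYC is among the proteins that bind it and Myc is in the set. Capitals mark the E-box, and each window is on the gene's own strand.
Nop2 (chr6:125131811-125131840, plus strand): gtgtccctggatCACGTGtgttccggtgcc
Utp4 (chr8:106893643-106893672, plus strand): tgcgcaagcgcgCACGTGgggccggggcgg
Utp20 (chr10:88826765-88826794, minus strand): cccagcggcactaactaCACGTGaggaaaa
Pes1 (chr11:3963965-3963994, plus strand): ccctaggcagggCACGTGcgggaggaagta
Mybbp1a (chr11:72441347-72441376, plus strand): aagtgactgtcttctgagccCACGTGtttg
Tsr1 (chr11:74898092-74898121, plus strand): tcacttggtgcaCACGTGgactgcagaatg
Wdr43 (chr17:71616220-71616249, plus strand): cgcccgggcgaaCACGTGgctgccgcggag
A match describes these letters and is not evidence of binding.

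None of the 38 tested genes passed the test for a difference between inhibitor and DMSO. Limma was run on the deposited log2 values of the 8562 genes whose base mean reached 10, and a gene was called at a Benjamini-Hochberg adjusted p under 0.05. Of all genes tested, 2.14% were called, 1.3% higher and 0.841% lower. At an unadjusted p under 0.05, 2 of the 38 passed, Tsr1 and Polr1c, against 12.2% of all genes. The authors' deposited table gave an adjusted p to 33 of the 39, and none was under 0.05, where 0.574% of all genes were (DESeq2, 26 of 4527). Nop10 lay under the base-mean minimum and was not tested. The summed normalised reads of the 39 genes were 8289.6 and 8049 in DMSO A and B and 7626 and 7824 in inhibitor A and B, a total in which Ncl, Npm1 and Mybbp1a weigh most.

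The size of the differences was small. Differences below are of log2(normalised reads + 1), inhibitor minus DMSO, with their standard error from limma on that scale, whereas adjusted p-values belong to the test on deposited values. Over the 38 genes the median was -0.07 (range -0.45 to 0.48), against 0.01 over all genes tested. The difference was below 0 in 29 of the 38, beside 49.2% of all genes. The deposited log2 values, which are pulled toward each gene's mean, gave a median of -0.02. Both inhibitor libraries lay below both DMSO libraries at 11 genes and above them at 2, 13 in all, where 20.5% and 20.7% of all tested genes did so, 41.2% in all. At 37 of the 38 genes the 95% interval of the difference lay within 1 log2 unit (2-fold) either way, the exception being Polr1b, and this held for 77.3% of all genes and for 92.5% of the 5936 genes in the same base-mean range. Within 0.5 log2 units either way lay the intervals of 23 genes, beside 23.8% of all genes and 33.3% of those in that range. These shares are not matched for abundance, on which the width of an interval depends. The 38 genes had a median base mean of 116 and a median standard error of 0.169. The genes in that range had 64.8 and 0.202. The interval counts rest on limma's errors. Those in the authors' deposited table (DESeq2) were wider at most members, such as 0.37 against 0.22 at Polr1c and 0.45 against 0.26 at Gar1. At Ncl and Npm1 they were slightly narrower. With the wider errors fewer intervals would stay within these bounds.

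**Figure D1:**
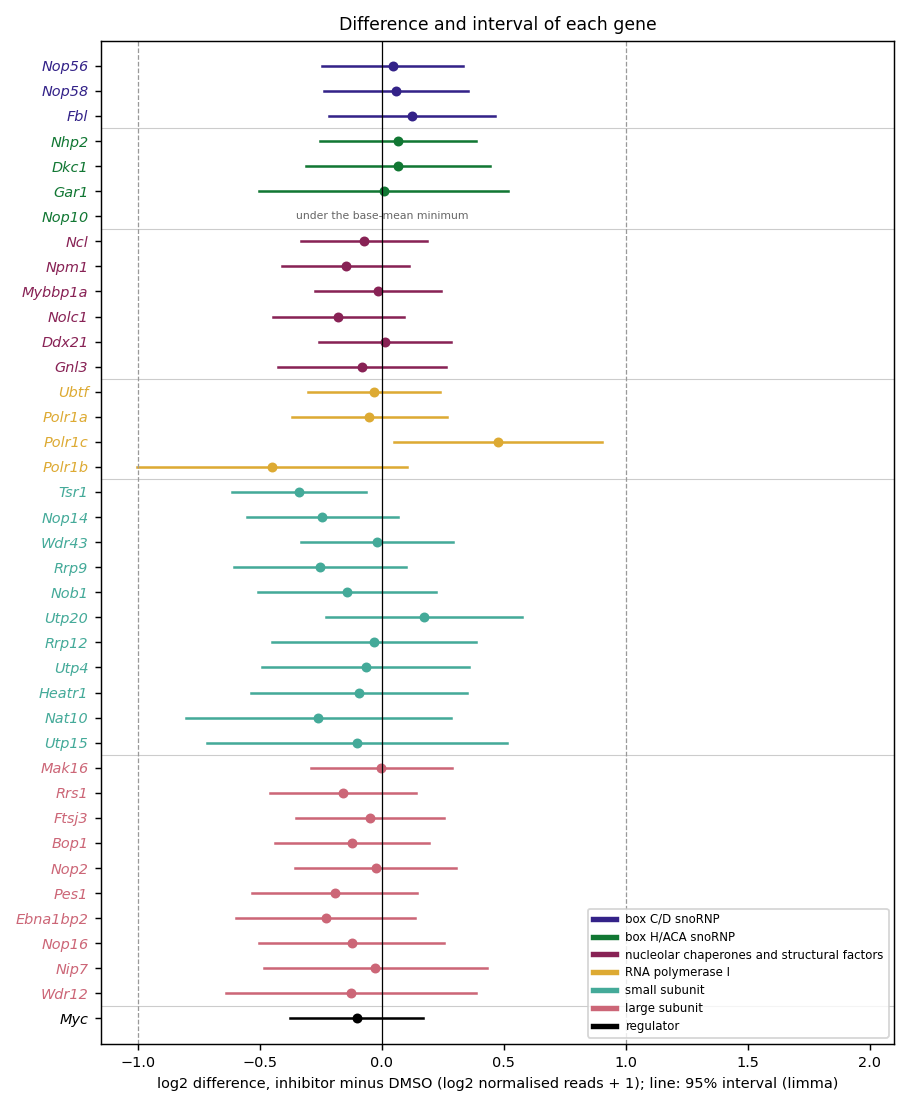
Log2 difference (inhibitor minus DMSO, log2 of normalised reads + 1) of each gene, grouped by role and coloured by it. Points are the differences, lines the 95% intervals from limma, and dashed lines mark -1 and 1. The intervals of all but Tsr1 and Polr1c include 0, and only that of Polr1b reaches past -1.

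The RGG proteins, substrates of type I methyltransferases, come first. Fibrillarin (Fbl, ENSMUSG00000046865.7, mm10 chromosome 7, 28169710 to 28179269, plus strand) is the methyltransferase of box C/D particles, which 2'-O-methylate ribosomal RNA. Its normalised reads were 98.7 and 93.9 in DMSO A and B and 105 in each inhibitor library. Both inhibitor libraries lay above both DMSO libraries, by little: the difference was 0.12 ± 0.17 (limma, adjusted p = 0.86). Nucleolin (Ncl, ENSMUSG00000026234.12, chromosome 1, 86344719 to 86359400, minus strand) is an abundant RNA-binding protein of the nucleolus. It held 1398 and 1321 reads in DMSO A and B and 1315 and 1269 in inhibitor A and B, so the groups did not overlap, yet inhibitor A and DMSO B were nearly level. Its difference was -0.07 ± 0.13 with a 95% interval of -0.33 to 0.19 (limma, adjusted p = 0.91). Gar1 (ENSMUSG00000028010.16, chromosome 3, 129824912 to 129831396, minus strand), a subunit of box H/ACA particles, had 30.5 and 44.9 reads in DMSO A and B and 43.2 and 32.0 in inhibitor A and B. Its groups overlapped fully, with a difference of 0.01 ± 0.26 and an interval of -0.50 to 0.52. None of the 3 has an annotated exon on the other strand.

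In the box C/D group, Nop56 and Nop58, the paired scaffold proteins of these particles, stood beside fibrillarin. Nop56 had 212 and 183 reads in DMSO A and B and 198 and 208 in inhibitor A and B, and the difference was 0.04 ± 0.15. Nop58 had 166 and 186, then 183 and 182, with 0.06 ± 0.15. In both genes the inhibitor libraries fell inside the range of the DMSO libraries. All 3 box C/D genes had a difference above 0, and their median was 0.06.

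Box H/ACA particles convert uridine to pseudouridine. Dkc1 encodes dyskerin, their catalytic subunit, and had 69.1 and 75.2 reads in DMSO A and B against 72.0 and 79.1 in inhibitor A and B (0.07 ± 0.19). Nhp2, a core RNA-binding subunit, had 118 and 159 reads, then 126 and 164 (0.07 ± 0.16). Its A libraries lay below its B libraries in both groups, and that gap was wider than the gap between groups. Nop10, the smallest core subunit, was counted at 5.38 and 4.18 reads in DMSO A and B and 4.12 and 11.02 in inhibitor A and B. The level of Nop10 in inhibitor B stood above the other 3, and at these counts a change was not detectable.

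Among the nucleolar chaperones and structural factors, 5 of 6 genes had a difference below 0 (median -0.08), and none passed. Npm1 (ENSMUSG00000057113.13, chromosome 11, 33152287 to 33163206, minus strand) encodes nucleophosmin, the histone and ribosome chaperone of the granular nucleolus. Its reads were 1305 and 1247 in DMSO A and B and 1136 and 1167 in inhibitor A and B, without overlap. The difference was -0.15 ± 0.13, with an interval of -0.41 to 0.11 (limma, adjusted p = 0.75). Npm1 has processed pseudogene copies that can share reads with it, so the value is uncertain. Nolc1, a phosphoprotein that escorts small nucleolar RNPs, had 364 and 376 reads against 348 and 307, again without overlap (-0.18 ± 0.14; limma, adjusted p = 0.67). Ddx21, an RNA helicase that links RNA polymerase I and II transcription, had 334 and 319 against 345 and 314, with the groups overlapping (0.01 ± 0.14). The GTPase Gnl3 (nucleostemin) and the transcriptional corepressor Mybbp1a had overlapping groups too, with -0.08 ± 0.17 and -0.02 ± 0.13.

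Of the 4 RNA polymerase I genes 1 had a difference above 0 and 3 below, and none passed. Polr1c (ENSMUSG00000067148.15, chromosome 17, 46243920 to 46248054, minus strand), an assembly subunit shared by RNA polymerases I and III, had the highest difference of the set, from 48.4 and 44.9 reads in DMSO A and B to 54.5 and 78.1 in inhibitor A and B. The groups did not overlap, but the inhibitor libraries differed from each other by more than inhibitor A differed from DMSO. Its difference was 0.48 ± 0.22, with an interval of 0.05 to 0.90 (limma, adjusted p = 0.30). Without inhibitor B the deposited log2 difference of 0.12 became 0.05. The authors' deposited table gave Polr1c a log2 fold change of 0.51 ± 0.37 (DESeq2, unadjusted p = 0.17). Polr1b, the second-largest catalytic subunit, had the lowest value of the set: 39.5 and 33.4 reads against 21.6 and 32.0, or -0.45 ± 0.28 (limma, adjusted p = 0.58). Here inhibitor B lay close to DMSO B. Polr1a, the largest catalytic subunit, had 153 and 121 reads against 142 and 121 (-0.05 ± 0.16). Ubtf, the factor that binds and opens ribosomal DNA for transcription, had 340.0 and 312 reads against 337 and 300.4 (-0.03 ± 0.14). The intervals of these last genes, -0.37 to 0.27 and -0.30 to 0.24, are narrower than those of the rarer subunits.

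**Figure D2:**
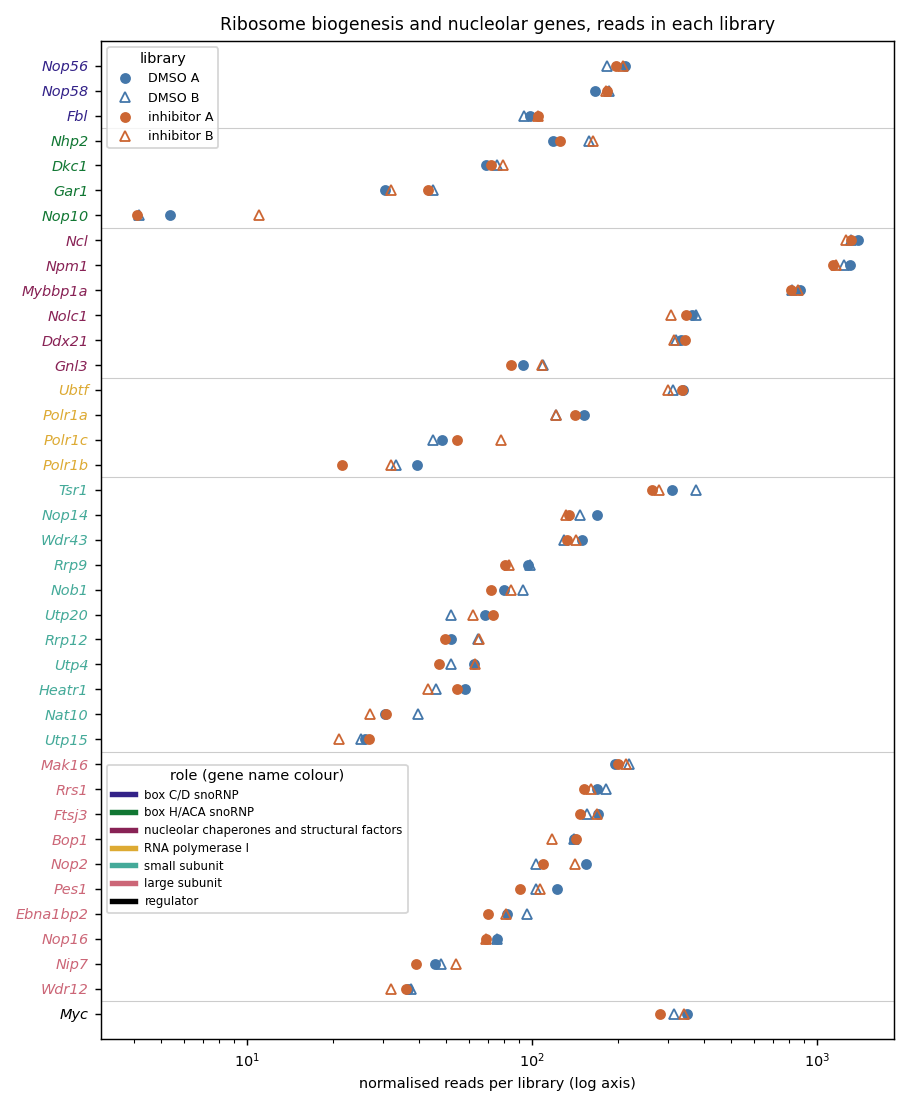
Normalised reads (log axis) of each gene in the 4 libraries. Circles are A libraries and triangles B libraries, blue for DMSO and orange for the inhibitor. Libraries of the 2 groups lie close together or interleave at most genes, and Nop10 alone lies under 20 reads in every library.

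Small subunit factors form the pre-ribosomal particle that cuts out the 18S rRNA. Of the 11 genes, 10 had a difference below 0, with a median of -0.10, and none passed. Tsr1 (ENSMUSG00000038335.13, chromosome 11, 74898071 to 74909342, plus strand), a GTPase-like factor of late 40S maturation, came nearest to a call in the whole set. It had 310.4 and 378 reads in DMSO A and B and 263 and 278 in inhibitor A and B. All inhibitor values lay below all DMSO values, and the DMSO libraries differed from each other by more than DMSO A differed from either inhibitor library. The difference was -0.34 ± 0.14 with an interval of -0.61 to -0.06 (limma, adjusted p = 0.23). Left without DMSO A, it passed (limma, adjusted p = 0.041), and without DMSO B its adjusted p was 0.65. The authors' deposited table gave Tsr1 a log2 fold change of -0.34 ± 0.18 (DESeq2, unadjusted p = 0.063). Tsr1 shares 1240 bp of exon with Srr on the other strand, which held a base mean of 3175 reads against 308 for Tsr1 and had a difference of 0.04 ± 0.14, so the source of reads at Tsr1 is uncertain.

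Nop14, a scaffold of the small subunit processome, had 169 and 147 reads in DMSO A and B and 135 and 131 with the inhibitor (-0.24 ± 0.16; limma, adjusted p = 0.56). Rrp9, which binds the U3 small nucleolar RNA, had 96.9 and 98.1 against 80.2 and 83.1 (-0.25 ± 0.18; limma, adjusted p = 0.63). At neither gene did the groups overlap, and the libraries of Rrp9 lay close together within each group. Utp20, a processome scaffold of U3 particles, was the only small subunit gene with a difference above 0. Its reads were 68.2 and 52.2 in DMSO A and B and 73.0 and 62.1 in inhibitor A and B, and the groups overlapped (0.17 ± 0.20). The other 7 genes all had overlapping groups. They were the processome proteins Wdr43, Utp4, Utp15 and Heatr1, the export factor Rrp12, the endonuclease Nob1 that makes the final cut of 18S rRNA, and the RNA acetyltransferase Nat10, with differences from -0.26 (Nat10) to -0.02 (Wdr43).

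Of the large subunit factors, which assemble the 60S particle, all 10 had a difference below 0, with a median of -0.12 and a range of -0.23 to -0.0013, and none passed. Ebna1bp2, an assembly factor of early 60S particles, had 81.6 and 96.0 reads in DMSO A and B and 70.0 and 81.1 in inhibitor A and B (-0.23 ± 0.18; limma, adjusted p = 0.70). Pes1, which with Bop1 and Wdr12 forms the PeBoW complex of 60S maturation, had 123 and 103 reads against 90.5 and 107 (-0.19 ± 0.17). Rrs1, a factor that helps to dock the 5S RNP, had 169 and 182 against 152 and 161 (-0.16 ± 0.15). The groups of Ebna1bp2 and Rrs1 did not overlap, by a narrow margin, and those of Pes1 did. Its partners Bop1 and Wdr12 had -0.12 ± 0.16 and -0.13 ± 0.26. The libraries of Nop16 lay close together in both groups, at 75.3 ± 0.145 reads in DMSO and 69.0 ± 0.121 with the inhibitor (SD, n = 2 each). Its difference was -0.12 with a standard error of 0.19, which limma takes mainly from the spread shared by all genes. The RNA methyltransferases Nop2 and Ftsj3 and the assembly factors Nip7 and Mak16 lay between -0.05 and -0.0013. Mak16 shares 882 bp of exon with Tti2, which held 3254 reads on average against 207 and had -0.03 ± 0.14.

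Myc (ENSMUSG00000022346.15, chromosome 15, 61985391 to 61990374, plus strand) had 349.9 and 315 reads in DMSO A and B and 281 and 341 in inhibitor A and B. Inhibitor B lay between the DMSO libraries and inhibitor A below both. The difference was -0.10 ± 0.14, with an interval of -0.38 to 0.17 (limma, adjusted p = 0.85). GENCODE places no exon opposite Myc. Among Myc's network partners, which pair with it or compete for its sites, none of 9 tested genes passed. Their median was 0.08, from -0.15 at Max, the obligate partner, to 0.43 at Mlxip (opposite Gm15747). The 7 genes with the E-box windows shown above had a median of -0.03, with Tsr1 lowest and Utp20 highest, and the 24 tested genes whose promoters lack the word had -0.08.

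Other genes of ribosome assembly, listed with earlier results of these data known, gave 1 call in 134 tested. The gene called was Pelp1, a scaffold of the complex that processes the large subunit's internal spacer. It fell from 78.1 and 67.8 reads in DMSO A and B to 39.1 and 48.1 in inhibitor A and B, a difference of -0.73 ± 0.21 (limma, adjusted p = 0.040). The call was lost without DMSO A, without either inhibitor library, with no base-mean minimum, without limma's trend and with voom scaled by library total. Pelp1 had an adjusted p of 0.865 in the authors' deposited table (DESeq2). The 134 genes had a median of -0.04, with 74 below 0 and 60 above. Small subunit genes (48 tested) had a median of 0.04, large subunit genes (52) of -0.07, snoRNP assembly genes (10) of -0.10, RNA polymerase I genes (11) of -0.15 and exosome genes (13) of 0.03.

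Nearest to a call after Pelp1 were 2 exosome genes, Emg1 and Ttf1. Exosc9, an RNA exosome subunit, had 1453 and 1809.98 reads against 2138 and 2196 (0.42 ± 0.13; limma, adjusted p = 0.096), and 510 bp of its exons lie opposite the cyclin gene Ccna2. Emg1, a methyltransferase of 18S rRNA, had 0.59 ± 0.20 (limma, adjusted p = 0.096) and lies opposite Lpcat3. Exosc7 had 30.5 and 31.3 reads against 12.3 and 19.0 (-0.96 ± 0.33; limma, adjusted p = 0.13), and Ttf1, the terminator factor of RNA polymerase I, had 31.4 and 28.2 against 14.4 and 16.0 (-0.93 ± 0.33; limma, adjusted p = 0.15). The groups did not overlap at any of these 4 genes, which were picked by their small p. Among all tested genes 41.2% had no overlap. Rpf2, the partner of Rrs1 in 5S RNP docking, had 0.83 ± 0.35 and Rrp8 (opposite Ilk) 0.33 ± 0.14, while Rrp1b (opposite Hsf2bp) had -0.44 ± 0.20, none past the threshold. In the remaining lists the lowest p in either direction belonged to Znhit3 (opposite Myo19; -0.61 ± 0.24), Pih1d1 (opposite Aldh16a1; -0.37 ± 0.18), Snu13 (0.18 ± 0.24) and Ruvbl1 (0.17 ± 0.19) in snoRNP assembly, and to Riok1 (opposite Cage1; -0.48 ± 0.25), Esf1 (-0.35 ± 0.27) and Krr1 (opposite Glipr1; 0.27 ± 0.13) in the small subunit. The other RNA polymerase I genes so picked were Polr2f (opposite 1700088E04Rik; -0.44 ± 0.24), Twistnb (0.44 ± 0.29) and Taf1c (opposite Dnaaf1; 0.39 ± 0.38), and the other exosome genes Exosc4 (opposite Oplah; -0.49 ± 0.29) and Exosc3 (opposite Dcaf10; 0.35 ± 0.29).

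**Figure D3:**
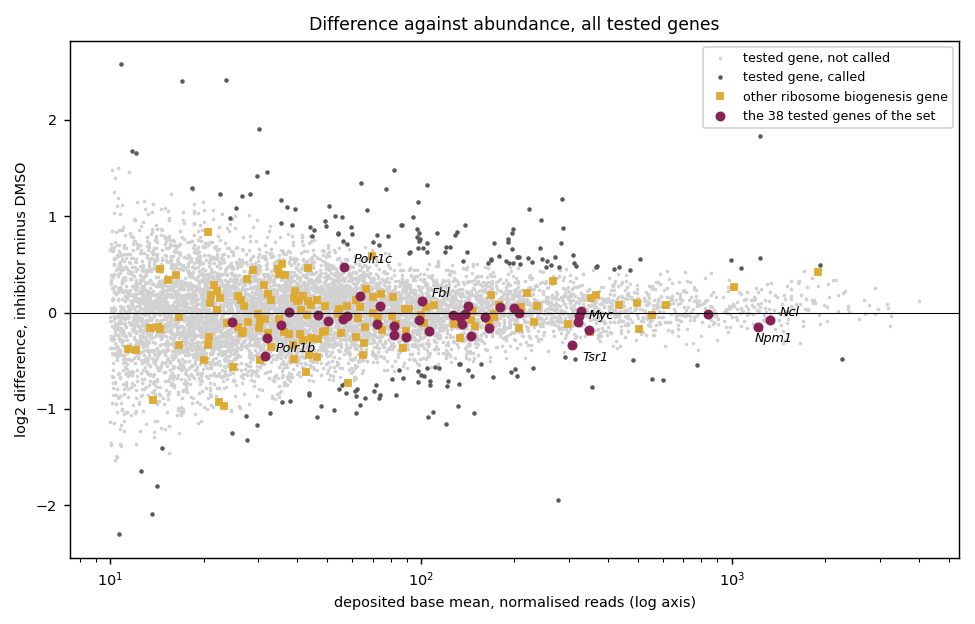
Log2 difference of every tested gene against its deposited base mean (log axis). Grey dots are tested genes, dark where called, yellow squares other ribosome biogenesis genes and purple circles the 38 tested genes of the set. The purple circles lie between -0.45 and 0.48, inside the grey band at their abundance, and none is called.

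**Figure D4:**
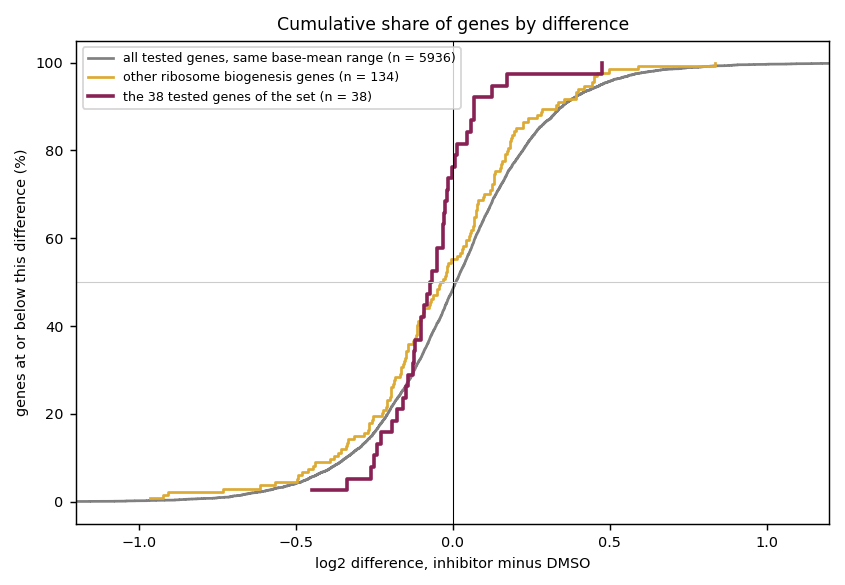
Share of genes (%) at or below each log2 difference, for the 38 tested genes (purple), 134 other ribosome biogenesis genes (yellow) and 5936 tested genes in the same base-mean range (grey). The purple curve crosses 50% at -0.07 and the grey curve crosses near 0.

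Per kilobase of annotated exon, the set spanned a wide range of levels. Exon length here is the union of all GENCODE transcripts, so genes with long alternative transcripts are set low. Npm1 stood highest at 455 normalised reads per kilobase, followed by Mybbp1a (144), Ncl (130.1), Nhp2 (124) and Myc (118). Wdr12 (2.98), Utp15 (4.23), Nat10 (4.45), Polr1b (5.45) and Nop10 (5.57) stood lowest. The median over the 38 tested genes was 29.8 reads per kilobase, against 9.67 over all tested genes. Among the roles with more than 1 gene, the nucleolar chaperones and structural factors had the highest median (109) and the small subunit factors the lowest (16.3).

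A further feature is shared by several members. Within the bounds and on the strand of 7 of the 38 tested genes lie annotated snoRNA genes, against 2.29% of all tested genes. At Nop56, Nop58, Ncl and Gnl3 some or all of them overlap annotated exons of the host, taken over all its transcripts. Nop56 holds 5, Nop58 holds 4, Ncl, Gnl3 and Wdr43 hold 3 each, Tsr1 holds 2 and Dkc1 holds 1. These 7 genes had a median difference of -0.02 and the other 31 of -0.09. Opposite-strand exons were annotated at 15 of the 38 tested genes, near the 37.9% of all tested genes. The medians with and without them were -0.08 and -0.07. For most the shared length was short, 5 to 185 bp outside Tsr1 and Mak16. Pes1 shares 138 bp with 4930556J24Rik, which held a base mean of 1065 reads against 106 for Pes1 and had a difference of -0.01 ± 0.13.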

How the data were processed

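Messenger RNA was sequenced in 4 libraries. Build mm10 and, as tools, DESeq2, StringTie 1.3.0, SAMtools 1.2 and HISAT2 2.1.0 are named in the submitters' processing notes. The deposited table gives log2 values per library. Their column heads say logCPM, but they lie near log2 of normalised counts and are shrunk toward each gene's mean. The authors also deposited a signal per gene, the base mean (counts over size factors, averaged), and per comparison a p-value, a q-value, a Wald score and the log2 fold change and its error.

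Whole reads per library were recovered from the base means, whose 10 lowest values give the size factors (1.11, 0.958, 0.972 and 0.999). Of 12578 genes 12567 had a single solution, every member among them. The remaining 11, all abundant, were estimated. In a simulated table of 1483 genes, which left out the most abundant genes, 100% came back exactly. Normalised reads are these reads over size factors.

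Limma 3.58.1 (R 4.3.3) with a trend was fitted to the deposited log2 values of the 8562 genes whose base mean reached 10, group being the only term, two-sided. The prior degrees of freedom were 182 and the residual ones 2, which makes calls depend mainly on the spread shared by all genes. Differences, errors and intervals come from limma on log2(normalised reads + 1) over 8551 genes, a scale that understates changes of low genes. It was tested on simulated data whose changes were 2-fold or larger, so differences as small as those of the members were not covered. Count models such as edgeR were not run, since no deposited column holds counts per library. The recovered reads were used in limma and voom fits only. Overlaps come from GENCODE vM21 (mm10), which holds 12570 of the genes.

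The members, lists and the base-mean minimum were chosen with earlier results of these data known. Values per library are given for called genes, for Fbl, Ncl, Gar1 and Myc, and for up to 3 genes per role and direction with the smallest p. Of the other pathway genes those called and the 2 per list and direction with the smallest p were considered. One listed marker is not reported here.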

Additional observations from a re-analysis of the deposited data

How the results depend on the processing

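Across 14 alternatives no member was called higher, and 1 was called lower in a single setting: Tsr1 without DMSO A. Leaving out a library gave 0 members higher and 0 to 1 lower. The voom fits were chosen after seeing the data. Of the 38 tested members 22 changed sign in at least one alternative and 16 kept it. The median over the members was -0.022 on the deposited log2 scale, which shrinks differences by construction. On the scale of log2(normalised reads + 1) it was -0.07, and -0.11 to -0.06 when a library was left out. Scaled by library total, the median of all genes moved to -0.03 and that of the members to -0.11.

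All-gene calls depended more on the processing. Against 111 higher and 72 lower, there were 12 and 4 with no base-mean minimum, 52 and 25 without the trend, 16 and 10 in the authors' deposited table, and 71 and 61 with voom scaled by library total. Leaving out a library gave 42 to 178 higher and 21 to 76 lower. Of the other ribosome biogenesis genes, 0 were lower with no minimum, without the trend, in the authors' deposited table and with voom by library total, and 1 was higher with either voom scaling (Exosc9). Leaving out a library gave 0 to 2 higher and 0 to 1 lower. A lone library left in a group is assumed to vary like the others.

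With the column letter as a replicate block on the deposited values, 0 members were called in either direction, 133 and 94 genes were higher and lower, and 0 and 1 among the other ribosome biogenesis genes. A letter block cannot change group differences in this balanced layout. The members' median therefore stayed at -0.022 on the deposited scale and -0.07 on log2(normalised reads + 1). The letters match no label, and same-letter libraries deviated together only weakly (correlation 0.085 over 8562 genes), so they share a letter only. The planned edgeR and DESeq2 fits were not run, because no deposited column holds counts per library, although reads were recovered from the base means. Depth limits what the rarer members can show: standard errors ran from 0.13 to 0.31.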
